A study of Hydra viridissima with 4 samples.

Results

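Long stretches without any open region were examined in the genome of the green hydra Hydra viridissima, a freshwater polyp whose gut epithelium houses unicellular algae. Peaks of 4 ATAC-seq libraries that shared at least 1 bp were merged into union regions, and the gaps between consecutive union regions were measured on the 14 scaffolds with at least 1000 union regions. The 1039 gaps of at least 20 kb are described here, out of 117203 gaps (0.886%), together with the 1854 union regions that border them. The members were chosen by gap length, so their number and length are a description and were not tested.

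In ATAC-seq, accessible DNA is cut by the transposase Tn5 and tagged for sequencing. The 2 symbiotic libraries came from green animals of clone 2 and the 2 aposymbiotic libraries from animals of clone 2 that lack the algae. Each library was made from 50 large animals without buds or gonads, last fed 2 days earlier and kept in filtered medium with antibiotics, so each is an average over all cell types of the body. Both conditions are a single clone, and differences between clones are not covered. A longer list finds more peaks and so cuts gaps short, which makes list length part of every value below. The lists held 31072 and 87128 peaks in symbiotic replicates 1 and 2 and 21481 and 78594 peaks in aposymbiotic replicates 1 and 2.

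In animal genomes, active promoters and enhancers lie in nucleosome-poor DNA that Tn5 can reach, while compact heterochromatin is cut rarely. Compact chromatin is typical of centromeres, of the sequence near chromosome ends and of blocks rich in repeats. Long stretches without a peak can also be sequence in which reads cannot be placed uniquely, or unassembled sequence. The lists give no reads within the gaps, so closed chromatin and a lack of placed reads cannot be told apart here.

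The gaps of at least 20 kb were few but long. They covered 67.3 Mb, or 24.7% of the 272 Mb between the first and last union region of the 14 scaffolds. The median over all gaps was 784 bp, 90% were at most 3946 bp and 99% at most 18385 bp. Among the members the median was 35449 bp, the quartiles were 24954 and 60957 bp, and the longest reached 1238475 bp. The 148 longest members held 50% of the length of all members. By length, 403 members were from 20 to 30 kb, 298 from 30 to 50 kb, 201 from 50 to 100 kb, 78 from 100 to 200 kb and 59 at least 200 kb. Those 59 alone summed to 21.8 Mb.

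The threshold fell within a continuous range of lengths. The shortest members measured 20007 bp (scaffold 8, 2259541 to 2279547), 20062 bp (scaffold 3, 9811885 to 9831946) and 20063 bp (scaffold 11, 4121609 to 4141671). The longest gaps below 20 kb measured 19980 bp (scaffold 9, 7085199 to 7105178), 19895 bp (scaffold 1, 25462069 to 25481963) and 19888 bp (scaffold 10, 14836396 to 14856283).

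**Figure D1:**
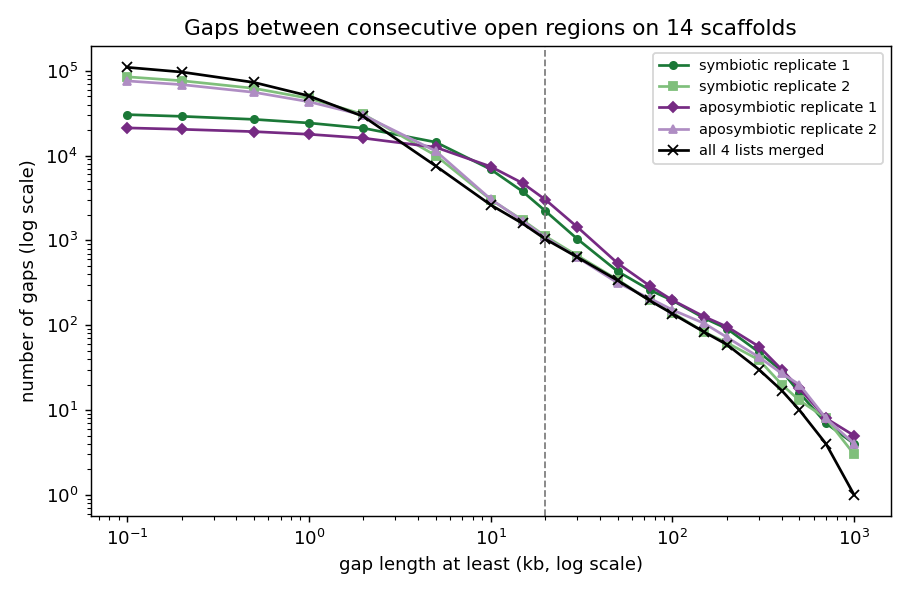
Number of gaps between consecutive open regions (log scale) that are at least as long as the value on the horizontal axis (kb, log scale), for each library's own peaks and for all 4 lists merged; the dashed line marks 20 kb. The 4 lists differ widely at short lengths and come together at long ones: at least 1 kb there were 24273 and 47405 gaps in symbiotic replicates 1 and 2 and 17859 and 43223 in aposymbiotic replicates 1 and 2, and at least 100 kb there were 196, 141, 198 and 152.

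By the rule, no member holds a peak of any list. Sets of long gaps built from 1 condition each overlapped widely. With the peaks of both symbiotic lists alone, 1114 gaps of at least 20 kb covered 71.4 Mb, and with both aposymbiotic lists alone 1048 gaps covered 75.3 Mb. The overlap of these separately built sets was 65.9 Mb, which is 92.2% of the symbiotic and 87.5% of the aposymbiotic length. Between the replicate 2 lists the overlap was 90.5% of the symbiotic and 86.9% of the aposymbiotic length. Between the shorter replicate 1 lists it was 85.6% of the symbiotic and 67.4% of the aposymbiotic length. Within the symbiotic condition it was 60.3% of the replicate 1 and 96.6% of the replicate 2 length. Within the aposymbiotic condition these shares were 49.4% and 96.5%.

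The short replicate 1 lists had more long gaps than the replicate 2 lists in both conditions. There were 2231 and 1123 in symbiotic replicates 1 and 2, against 3033 and 1085 in aposymbiotic replicates 1 and 2. The conditions overlapped, since the replicates of each differed by more than the conditions did. The means were 1677 ± 783 in symbiotic and 2059 ± 1377 in aposymbiotic lists (SD, n = 2 each). The log2 ratio was -0.30, with p = 1 (exact permutation test, two-sided); the smallest p that 2 against 2 libraries allow, here and below, is 0.333. With each list cut to its 21481 strongest peaks by fold there were 2988 and 2929 long gaps in symbiotic replicates 1 and 2 and 2965 and 3091 in aposymbiotic replicates 1 and 2, a log2 ratio of -0.03. With the lists as deposited the ratio turned to 0.12 without symbiotic replicate 2 and to 0.63 without aposymbiotic replicate 1.

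Each member was also followed in the separate lists, where the gap that holds it can only be as long or longer. In the symbiotic replicate 2 list, the median gap around a member was 1.01 times the member's length, and 298 members had exactly the same ends. In aposymbiotic replicate 2 the median was 1.21 times and 78 members had the same ends. In replicate 1 the medians were 1.52 times in the symbiotic and 1.95 times in the aposymbiotic list, with 31 and 14 members unchanged. A condition's pair of lists could be compared for the 1016 members that had a peak on both sides in both pairs. The gap was longer in symbiotic animals for 315 and longer in aposymbiotic animals for 700. It differed by less than 1.5-fold for 65.5% of them. It was over 2-fold longer in symbiotic animals for 23 and over 2-fold longer in aposymbiotic animals for 210. Symbiotic replicate 2, the longest list, called 640 of the 1854 border regions (34.5%) and 26.5% of the other regions alone, so condition and list length cannot be told apart in these counts.

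The longest member lay on scaffold 2 at 25104993 to 26343467, near the far end of that scaffold. The symbiotic lists gave it 1377587 bp in replicate 1 and 1238475 bp in replicate 2, and the list of aposymbiotic replicate 1 gave 1396566 bp. Aposymbiotic replicate 2 had no peak beyond it. Its left border was called in symbiotic replicate 2 alone, with a fold enrichment (summit pileup over the caller's background, each with 1 added) of 2.97. Its right border, at 26343468 to 26343726, was strong, with folds of 7.82 and 8.65 in symbiotic replicates 1 and 2 and 4.52 in aposymbiotic replicate 1.

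Scaffold 10 held the second longest member, 934838 bp at 6608558 to 7543395. Its borders were called in 1 library each, the left with a fold of 3.08 in symbiotic replicate 1 and the right with 2.35 in symbiotic replicate 2. Every list lacked at least 1 of these calls, and in every list it ran longer. It measured 1094966 and 1120667 bp in symbiotic replicates 1 and 2, against 1643363 and 1132194 bp in aposymbiotic replicates 1 and 2. The same scaffold held a member of 693235 bp at 5266976 to 5960210, again between borders of 1 library each, with folds of 5.60 in symbiotic replicate 2 and 4.36 in symbiotic replicate 1. In the aposymbiotic pair of lists that stretch had no peak over 1534943 bp, against 693235 bp in the symbiotic pair. The separate lists gave 1434897 and 793038 bp in symbiotic replicates 1 and 2, against 1763835 and 1534966 bp in aposymbiotic replicates 1 and 2. The symbiotic pair value thus rests on 1 call from each list.

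On scaffold 9 at 9603858 to 10463148 the third longest member measured 859291 bp. Its length was 879514 and 859317 bp in symbiotic replicates 1 and 2, against 879482 and 870412 bp in aposymbiotic replicates 1 and 2, so all 4 lists placed its ends within about the same stretch. The right border, at 10463149 to 10463438, was called in all 4 libraries, with folds of 11.8 and 5.53 in symbiotic replicates 1 and 2 and of 5.97 and 3.50 in aposymbiotic replicates 1 and 2. The member of 804842 bp on scaffold 6 at 10066200 to 10871041 measured 804909 and 925117 bp in symbiotic replicates 1 and 2, against 804986 and 1010472 bp in aposymbiotic replicates 1 and 2, so it was longer in both replicate 2 lists. Its right border was called in the replicate 1 libraries alone, with folds of 2.95 in the symbiotic and 3.08 in the aposymbiotic one.

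The member on scaffold 5 at 567453 to 1178861 was the most sharply bounded of the 10 longest. It measured 611409 bp, and 611436 and 611421 bp in symbiotic replicates 1 and 2 against 611422 and 611434 bp in aposymbiotic replicates 1 and 2. Both borders were called in all 4 libraries. The right border, at 1178862 to 1179066, had folds of 4.74 and 5.05 in symbiotic replicates 1 and 2 and of 3.66 and 3.73 in aposymbiotic replicates 1 and 2. It opened a group of 3 union regions within 3484 bp, after which the next member, of 510552 bp, began at 1182346. The last region of that group, a border called in aposymbiotic replicate 2 alone, had a fold of 2.26.

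The remaining members of the 10 longest lay on scaffolds 1, 14 and 8. On scaffold 1 at 39018571 to 39708226 a stretch of 689656 bp was bounded by single calls with folds of 3.08 in symbiotic replicate 1 and 3.66 in aposymbiotic replicate 1. On scaffold 14 at 4184013 to 4787586 a stretch of 603574 bp widened to 1763911 bp in aposymbiotic replicate 1, against 619588 bp in aposymbiotic replicate 2. On scaffold 8 at 9243504 to 9805458 the length was 562032 and 562976 bp in symbiotic replicates 1 and 2 and 563066 and 563225 bp in aposymbiotic replicates 1 and 2. Its left border was one of the broader regions, 1296 bp wide and called in all 4 libraries. Of the 20 border positions of these 10 members, 12 were called in a single library and 4 in all libraries. Among all border regions 58.8% were called in a single library and 12.7% in all libraries. Among the other union regions of these scaffolds these shares were 51.9% and 8.62%.

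Long gaps were unevenly spread over the scaffolds. They took up 54.9% of scaffold 14, 37.1% of scaffold 1, 35.7% of scaffold 5, 33.5% of scaffold 10 and 30.8% of scaffold 4. The lowest shares were 11.2% on scaffold 8, 11.6% on scaffold 3 and 11.7% on scaffold 2. Scaffold 1, the largest, held 279 members at 6.73 per Mb, the highest density. Scaffold 2 held 48 at 1.82 per Mb, the lowest, although it also held the longest member. Within scaffold 1, 147 of the 279 members (52.7%) started between 16 and 28 Mb.

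With the long gaps left out of the length, the scaffolds differed less in how densely open regions lay. Over the whole span the density ranged from 234 union regions per Mb on scaffold 14 to 532 on scaffold 3, a 2.27-fold range. With the members left out of the length it ranged from 519.6 on scaffold 14 to 602 on scaffold 3, a 1.16-fold range. Scaffold 1 had 522 per Mb outside the members and 328 over its whole span. By the rule the length left out holds no region, and it was 54.9% of scaffold 14 against 11.6% of scaffold 3. The narrower range is therefore in part set by the rule.

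**Figure D2:**
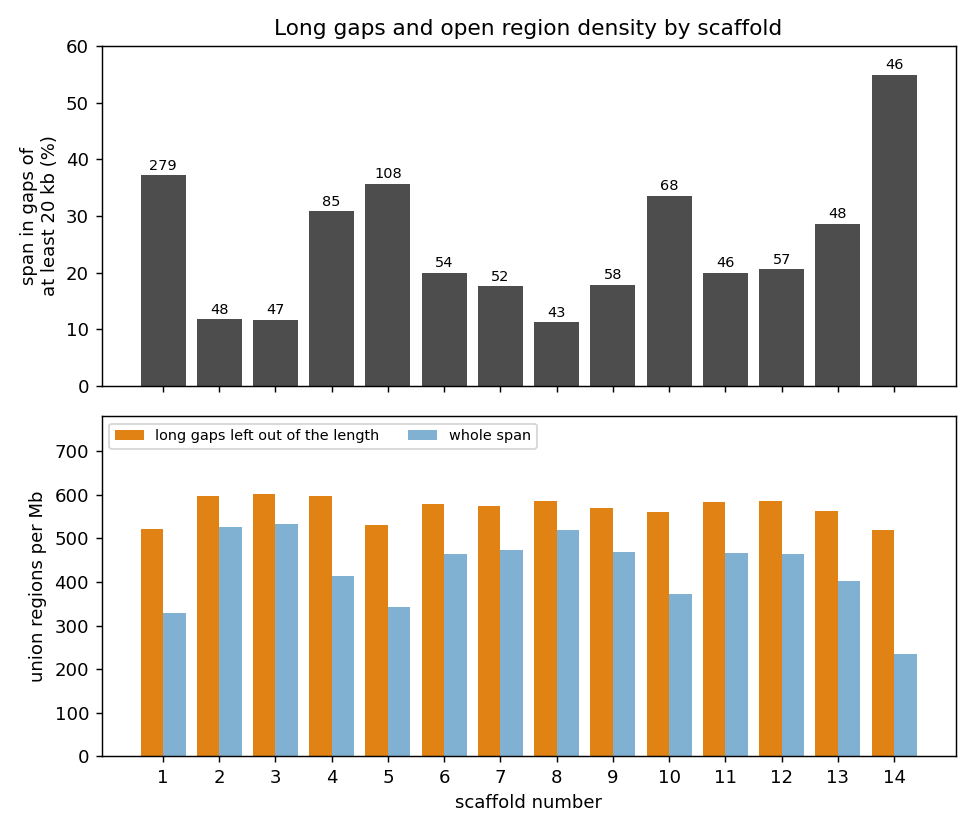
Top, share of each scaffold's span (%) in gaps of at least 20 kb, with the number of such gaps above each bar. Bottom, union regions per Mb of scaffold with the long gaps left out of the length (orange) and over the whole span (blue). The orange bars range from 519.6 to 602 and the blue bars from 234 to 532. By the rule the gaps left out hold no region, which in part sets the narrower orange range.

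Along the scaffolds the members gathered near the ends and around the middle. Position was expressed as a percent of the span between first and last union region, because scaffold lengths were not used here. Each member was counted whole in the part that holds its midpoint. Member length was then 34.1% of the outer parts (the first and last 10%) and 35.7% of the middle part (40 to 60%), but 17.9% of the rest. The middle part was above the rest of the same scaffold on 12 of the 14 scaffolds and the outer parts on 11. On scaffold 1 the shares were 46.0% at the ends, 70.1% in the middle and 23.2% in the rest. Scaffold 6 had 13.3%, 60.8% and 8.57% in the same order, and scaffold 3 had 20.2%, 26.2% and 3.89%. Scaffold 13 went the other way in the middle, with 46.2%, 2.61% and 31.4%. On scaffold 4 the middle was barely above the rest, with 23.4% against 23.0%. The ends were below the rest on scaffold 8 (5.34% against 6.81%) and level with it on scaffold 14 (52.62% each). Scaffold 10 was the exception to both, with 17.9% and 12.6% against 45.7%, since its long run of members lay outside these parts. The longest member of a scaffold lay between 39 and 56% of the span on 8 scaffolds, in the first 10% on 2 and in the last 10% on 2. The range from 39% starts below the middle part and so takes in scaffold 10, whose longest member lay at 39.3%. Scaffolds are not replicates of a condition, and the parts were chosen after the distribution was seen, so these counts are a description.

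**Figure D3:**
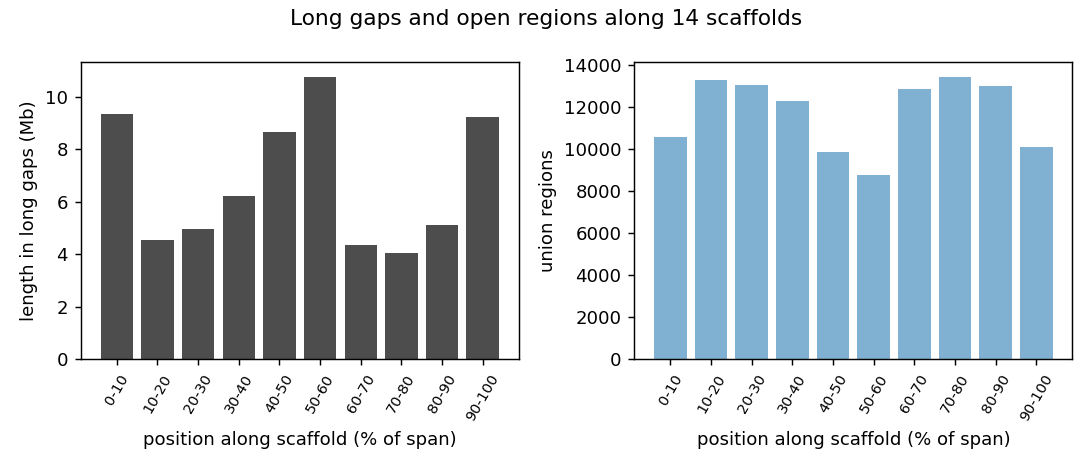
Left, total length of the long gaps (Mb) by position of their midpoint along the scaffold, in steps of 10% of the span, summed over 14 scaffolds. Right, number of union regions in the same steps; the length in long gaps is highest at 50 to 60% (10.8 Mb), in the first and last steps (9.33 and 9.26 Mb) and at 40 to 50% (8.68 Mb), and these 4 steps also hold the fewest union regions (8748, 10600, 10083 and 9876).

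Many members followed one another with a single union region between them. The 1039 members formed 815 runs, of which 141 held at least 2 members and together 365 members (35.1%). The longest run by number had 7 members. The longest run by extent lay on scaffold 6 at 9457865 to 10991288, where 5 isolated regions with 995 bp in total interrupted 1533424 bp. On scaffold 14 at 3377054 to 4787586, 5 regions with 577 bp in total interrupted 1410533 bp. On scaffold 10 at 5027931 to 6403094, 5 regions with 679 bp interrupted 1375164 bp. In all, 6 runs reached 1 Mb.

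Regions with a long gap on both sides numbered 224, and most were narrow calls of 1 library. Their median width was 124.5 bp, against 149 bp over all 1854 border regions and 170 bp over the other 115363 union regions of the same scaffolds. Of the 224, 156 (69.6%) were called in 1 library, against 51.9% of the other regions. Of these single calls, 27 and 92 came from symbiotic replicates 1 and 2, and 13 and 24 from aposymbiotic replicates 1 and 2. The 92 are 41.1% of the 224, and symbiotic replicate 2 alone called 26.5% of the other regions. In contrast 31 were called in all 4 libraries, or 13.8%, against 8.68% of all union regions on these scaffolds.

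The most isolated region of all was called in every library. By the shorter of its neighbouring gaps it ranked first, and it lay on scaffold 14 at 3039457 to 3039761, with 356322 bp before it and 324014 bp after it. Its fold was 11.4 and 9.06 in symbiotic replicates 1 and 2 and 5.77 and 6.22 in aposymbiotic replicates 1 and 2, from 88, 130, 59 and 109 tags at the summit. Both symbiotic folds were above both aposymbiotic folds at this region, and no region was tested on its own. The others with the most isolation were weaker. On scaffold 10 at 4766922 to 4767024 a region between gaps of 237486 and 241674 bp had a fold of 2.35 in symbiotic replicate 2 alone. Also on scaffold 10, the region at 3744765 to 3744997 had folds of 3.84 in symbiotic replicate 1 and 3.75 in aposymbiotic replicate 1 and was not called in replicate 2. Calls of symbiotic replicate 2 alone made up the other 3: scaffold 6 at 9783445 to 9783545 with a fold of 3.11, scaffold 14 at 1491406 to 1491493 with 2.01, and scaffold 10 at 5266877 to 5266975 with 5.60.

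Border regions in general were a mixture of shared and single calls. Of the 1854, 236 (12.7%) were called in all 4 libraries, against 8.62% of the other regions, and 1090 (58.8%) in a single library, against 51.9% of the other regions. The excess of single calls rested on the lists used: the difference of 6.90 percentage points turned to -2.41 when only peaks with a -log10 q of at least 5 were kept and to -4.39 without symbiotic replicate 2. Regions of 1 condition were about as common as elsewhere. Both symbiotic lists but neither aposymbiotic list called 54 borders (2.91%), against 3.13% of all union regions tested. Both aposymbiotic lists but neither symbiotic list called 21 (1.13%), against 1.02%.

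The strongest border regions lay at the very top of every list. The region on scaffold 1 at 30802248 to 30802387 stood 27605 bp before its neighbour and had folds of 29.7 and 20.3 in symbiotic replicates 1 and 2 and of 23.9 and 21.8 in aposymbiotic replicates 1 and 2. The region on scaffold 12 at 9321122 to 9321707 closed a gap of 330565 bp. Its folds were 23.2 and 22.97 in symbiotic replicates 1 and 2 and 13.95 and 13.6 in aposymbiotic replicates 1 and 2. The region on scaffold 13 at 822864 to 823603 closed a gap of 315342 bp, with folds of 22.2 and 19.6 in symbiotic replicates 1 and 2 and of 12.7 and 16.1 in aposymbiotic replicates 1 and 2. At both of these the symbiotic folds were above the aposymbiotic ones. Over the peaks of the 10176 regions that all libraries called on these scaffolds, median folds were also higher in the symbiotic lists, at 3.34 and 3.36 in symbiotic replicates 1 and 2 and 2.91 and 2.84 in aposymbiotic replicates 1 and 2. The next, at 8799005 to 8799329 of scaffold 8 and at 8998335 to 8998674 of scaffold 9, bordered shorter members of 30711 and 29175 bp. Their folds ranged from 10.1 to 13.2 over the 4 libraries.

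The strongest borders of the symbiotic condition all lay on scaffold 1. The region at 41423632 to 41423786 followed a gap of 130967 bp and had folds of 8.20 and 5.26 in symbiotic replicates 1 and 2. The region at 20818296 to 20818389 followed a gap of 137292 bp, with folds of 5.13 and 4.70. The region at 16197525 to 16197649 came before a gap of 35132 bp, with folds of 3.72 and 3.597. The strongest aposymbiotic borders lay at 13183528 to 13183677 of scaffold 12, with 5.29-fold and 5.03-fold enrichment in aposymbiotic replicates 1 and 2, at 15370635 to 15370802 of scaffold 2, with 5.58 and 3.11, and at 5771915 to 5772026 of scaffold 9, with 3.95 and 3.90. None of the 6 had a peak in either library of the other condition, where the lists hold no value.

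How often a library called the border regions differed by list and changed with gap length. Symbiotic replicates 1 and 2 called 30.7% and 71.5% of them, and aposymbiotic replicates 1 and 2 called 23.4% and 50.1%. Of the other regions, symbiotic replicates 1 and 2 called 24.8% and 71.9%, and aposymbiotic replicates 1 and 2 called 17.4% and 63.9%. Both replicate 1 lists thus called borders more often than other regions, aposymbiotic replicate 2 called them less often, and symbiotic replicate 2 about equally often. The mean over a condition was 51.1 ± 28.9% in symbiotic and 36.7 ± 18.9% in aposymbiotic libraries (SD, n = 2 each), a difference within the spread of replicates (two-sided exact permutation p = 0.667). The difference of 14.4 percentage points was 0.56 with lists of equal length and 0.74 without aposymbiotic replicate 1, and turned to -12.2 without symbiotic replicate 2.

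At the borders of members of at least 200 kb the libraries came closer together. Of these 115 regions, 51.3% and 57.4% were called in symbiotic replicates 1 and 2, against 34.8% and 38.3% in aposymbiotic replicates 1 and 2. At members of 20 to 30 kb the shares were 29.8% and 73.5% in symbiotic replicates 1 and 2, against 23.4% and 54.9% in aposymbiotic replicates 1 and 2. The difference between the replicate numbers was therefore smaller at the longest gaps in both conditions. In both classes and both replicate numbers the symbiotic share was above the aposymbiotic one, as it was at other regions.

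**Figure D4:**
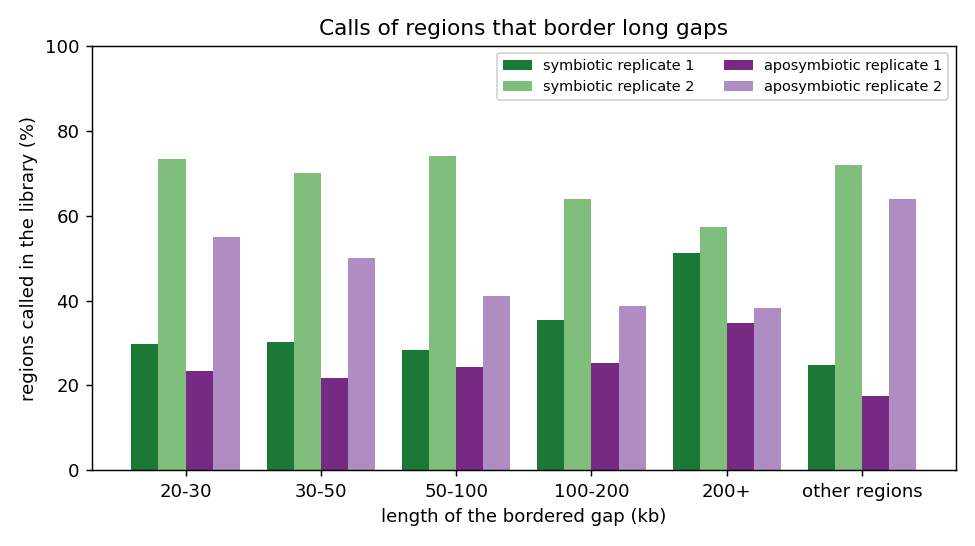
Share of border regions called in each library (%), by the length of the gap they border (kb), and of the other union regions of the same scaffolds (right). Symbiotic replicate 1 rises to 51.3% at gaps of at least 200 kb against 24.8% of other regions, while aposymbiotic replicate 2 is at 38.3% against 63.9%.

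Almost all border peaks stood on the lowest background that the caller uses. In its usual procedure the caller divides the summit pileup plus 1 by a background plus 1. That background is the larger of a genome-wide one and a local one averaged around the peak. The settings used here are not known, and this reading is assumed below. The genome-wide background was recovered from the deposited folds and p-values as 6.80 and 13.5 tags in symbiotic replicates 1 and 2 and as 9.39 and 16.7 tags in aposymbiotic replicates 1 and 2. The local background did not exceed it at 93.2% and 94.8% of border peaks in symbiotic replicates 1 and 2, against 33.2% and 29.8% of other peaks. In aposymbiotic replicates 1 and 2 it did not exceed it at 94.9% and 95.01% of border peaks, against 37.9% and 31.0% of other peaks. The difference, 61.5 ± 3.68 percentage points (SD, n = 4 libraries), had the same sign in 4 of 4 libraries (two-sided exact sign-flip permutation p = 0.125, the smallest that 4 libraries allow). With lists of equal length it was 35.5 percentage points. These values describe the surroundings of the border peaks and do not reach the middle of a gap. Borders were chosen for a long stretch without peaks beside them, which a local background averaged around the peak would in part take in. The rule thus favours a higher share at borders, and the test gives no support independent of the rule.

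The high share of peaks on the genome-wide background was not particular to gaps of 20 kb. Among regions whose longer neighbouring gap was under 1 kb, 29.1% and 26.8% of peaks stood on the genome-wide background in symbiotic replicates 1 and 2, and 34.6% and 28.6% in aposymbiotic replicates 1 and 2. The shares were lower at 1 to 2 kb than under 1 kb, with 23.2% and 20.5% in symbiotic and 24.4% and 20.9% in aposymbiotic replicates 1 and 2. From 10 to 20 kb they were already 86.8% and 90.2% in symbiotic and 92.1% and 92.0% in aposymbiotic replicates 1 and 2. At 100 kb or more they were 98.2% and 98.1% in symbiotic and 100% and 98.1% in aposymbiotic replicates 1 and 2.

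**Figure D5:**
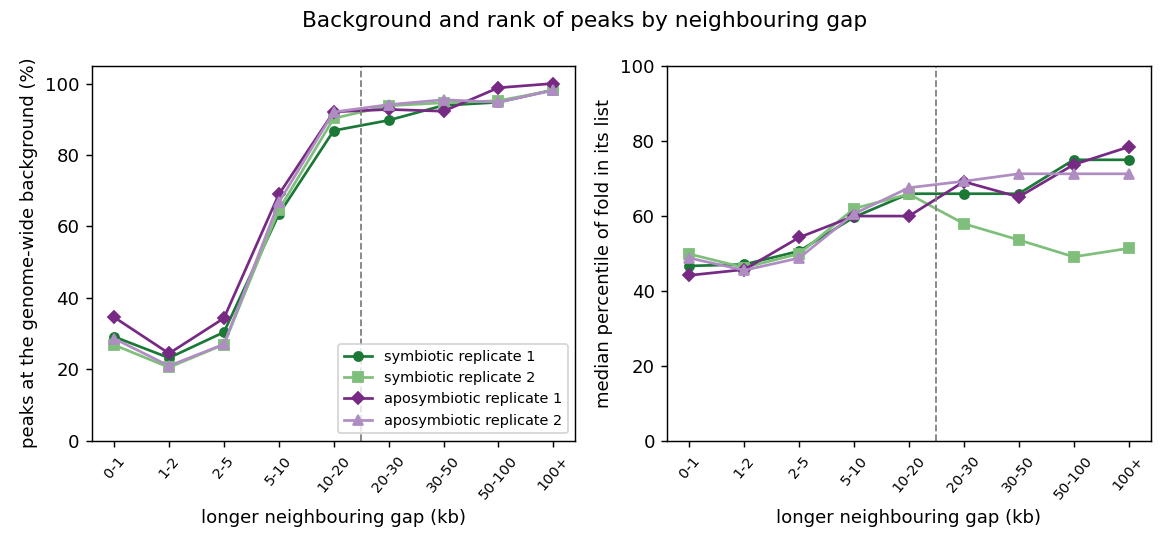
Left, share of peaks (%) whose background equals the genome-wide one, and right, median percentile of fold enrichment within the peak's own list, by the longer gap beside the region (kb), with 1 line per library; members lie right of the dashed line. The share is lower at 1 to 2 kb than under 1 kb in all 4 libraries, then climbs and is 86.8% or more from 10 kb on, and the fold percentile is higher beside long gaps in 3 libraries but falls back in symbiotic replicate 2, to 51.3 at 100 kb or more.

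Border peaks ranked higher in their lists by fold, though not by tags. The median percentile of fold was 65.8 and 53.5 in symbiotic replicates 1 and 2, against 49.5 and 50.0 for other peaks. In aposymbiotic replicates 1 and 2 it was 72.3 and 71.2, against 49.4 and 49.7 for other peaks. The difference was 16.03 ± 8.79 percentile points (SD, n = 4 libraries), higher in 4 of 4 libraries (two-sided exact sign-flip permutation p = 0.125), and 6.41 points with lists of equal length. Fold divides by the background, which the choice of borders by gap length favours to be low. The test of fold is therefore not independent of the rule. Between the conditions, the median percentile of border peaks was 59.7 ± 8.71 in symbiotic and 71.7 ± 0.784 in aposymbiotic libraries (SD, n = 2 each), a difference of -12.0 points in which the libraries did not overlap (two-sided exact permutation p = 0.333, the smallest possible). Symbiotic replicate 2 alone called 34.5% of the border regions, and this contrast was not repeated with lists of equal length or without single libraries. The median fold itself was 3.20 and 2.56 at borders in symbiotic replicates 1 and 2, against 2.92 and 2.496 elsewhere, and 3.08 and 2.49 in aposymbiotic replicates 1 and 2, against 2.61 and 2.21 elsewhere. The number of tags at the summit did not follow. It had a median of 24 and 37 at borders in symbiotic replicates 1 and 2, against 25 and 42 elsewhere, and of 31 and 43 in aposymbiotic replicates 1 and 2, against 29 and 45 elsewhere. By percentile of tags the difference was -6.40 ± 12.6 points (SD, n = 4 libraries), lower in 3 of 4 libraries (two-sided exact sign-flip permutation p = 0.5). Among peaks on the genome-wide background alone, the percentile of fold was 7.16 ± 12.0 points higher at borders (SD, n = 4 libraries), higher in 3 of 4 (two-sided exact sign-flip permutation p = 0.375).

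By fold, border peaks were more often at the top of their list than other peaks. Of the border peaks, 22.7% and 17.9% in symbiotic replicates 1 and 2 were above the 90th percentile of fold of their list, against 9.68% and 9.84% of other peaks. In aposymbiotic replicates 1 and 2 these shares were 21.0% and 24.0%, against 9.73% and 9.54%. Most border peaks stood on the lowest background, where a given number of tags yields the highest fold. Top shares by tags were not computed. Peak widths differed by less than the spread between libraries, with medians of 133 and 149 bp against 137 and 165 bp in symbiotic replicates 1 and 2, and of 162 and 144 bp against 158 and 149 bp in aposymbiotic replicates 1 and 2. The difference was -5.25 ± 8.22 bp (SD, n = 4 libraries; two-sided exact sign-flip permutation p = 0.375).

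Outside their borders, the members lay in sparse surroundings. In the first 10 kb beyond a border there were 292 union regions per Mb, which is 0.679 times the 430.2 per Mb of all 14 scaffolds. From 10 to 20 kb there were 262 per Mb (0.608 times), and from 100 to 200 kb 318 per Mb (0.739 times). The ratio was similar in each list: from 10 to 20 kb it was 0.620 and 0.606 in symbiotic replicates 1 and 2 and 0.620 and 0.599 in aposymbiotic replicates 1 and 2. These windows include further members, which are part of the lower density. On the far side of a border with 1 long gap the next gap had a median of 1430 bp, against 771 bp over all gaps under 20 kb, and 27.0% of these far-side gaps reached 5 kb, against 5.60%.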

How the data were processed

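Per the labels' protocols, dissociated cells of whole animals were tagged with a commercial ATAC kit. Trimming tool Trim Galore (0.6.10), aligner Bowtie2 (2.5.4), the deepTools suite and peak caller MACS3 (3.0.4) are named in the submitters' processing notes. The sources used here name neither the caller's settings nor the assembly. As deposited by the authors there is 1 peak list per library, with a fold enrichment (a ratio), a -log10 p and a -log10 q per summit, a whole-number score of 10 times the -log10 q, and a summit offset in bp. All deposited -log10 q values are above 2. Repeated lines of 1 interval were counted as 1 peak with its strongest summit. Positions count from 1 on the deposited scaffolds, with no genome build named.

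Pileup and background were solved from each deposited fold and p-value, which returned the listed -log10 p within 0.005 for 100% of peaks. A peak stood on the genome-wide background when its value was within 0.2% of it. Total reads per library are unknown, and tags carry counting error. Folds were ranked within a list only. Named are the 10 longest members, 3 gaps on either side of 20 kb, the 3 longest runs, the 6 regions with the longest shorter neighbouring gap, and the strongest borders by lowest percentile of fold (5 called in all libraries, 3 per condition). The members and lists were chosen with earlier results of these data known. Replicate numbers were given by the labels; nothing says they mark a shared batch, and p-values measure the spread between these 4 libraries. The procedures were tested on simulated lists. Software was Python 3.11.15, scipy 1.17.1, numpy 2.4.6, pandas 2.3.3 and matplotlib 3.10.9.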

Additional observations from a re-analysis of the deposited data

How the results depend on the processing

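The number of long gaps was 1584 with a minimum of 15 kb and 636 with 30 kb. It stayed between 945 and 1306 under the other settings, namely equal list lengths (21481 peaks, by fold), a -log10 q minimum of 5, windows of 200 bp around summits, regions of at least 2 libraries and scaffolds with at least 5000 regions, and between 1038 and 1094 when each library was left out. The difference in background and in fold percentile between border and other peaks kept its sign under all 11 alternatives, from 35.5 to 62.8 percentage points and from 6.41 to 18.0 percentile points, both lowest with lists of equal length. The differences in peak width and in tag percentile also kept theirs. For background and fold percentile the member rule itself favours the sign seen. The excess of single calls at borders was 6.90 percentage points; it was 4.13 at 15 kb and 9.85 at 30 kb, and reversed to -2.41 at the stricter q and to -1.37 with lists of equal length, where the cause was not tested. Leaving out each library gave -4.39 to 7.14. The share of borders called, symbiotic minus aposymbiotic, ranged from -12.2 to 37.2 without each library and was 0.56 with lists of equal length, and the log2 ratio of long gaps per list from -0.87 to 0.63, reversing without symbiotic replicate 2 (0.12) and without aposymbiotic replicate 1 (0.63).

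With a replicate block the difference in borders called was 14.4 percentage points (exact sign-flip p = 0.5). The log2 ratio of long gaps per list was -0.20 (exact sign-flip p = 1). It averages log2 differences within pairs, whereas the -0.30 without a block is the log2 of a ratio of means. With 2 pairs the smallest sign-flip p is 0.5, so neither this pairing nor a crossed one could call a difference. Deviations of same-numbered libraries correlated at -0.10 over all regions, where a union region needs at least 1 call, and at 0.04 over border regions. With the numbers crossed the values were again 14.4 percentage points and -0.20. The analyses of background, tags, position and flanking density, and the crossed pairing, were chosen after seeing the data.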
